A study of Mus musculus with 6 samples.

Results

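The fatty acid uptake and oxidation genes are 38 mouse genes whose products bring fatty acids into the cell, activate them, carry them into mitochondria and break them down there. They were taken from a fixed list of symbols, matched through the Ensembl gene IDs of the expression table to GENCODE M21, and all 38 were found among the 54532 IDs of the table. RNA-seq was performed on primary cardiomyocytes isolated from the hearts of neonatal mice with a modified Rit1 gene, from which the RIT1 M90I protein is made once Cre recombinase has acted. RIT1 is a small GTPase related to RAS. The control group (AdGFP, n = 3) was Rit1 +/+ by its labels and was given an adenovirus encoding GFP. The second group (AdCre, n = 3) was labelled Rit1 M90I/+ and was given an adenovirus encoding GFP-Cre. Infection took place on day 3 after isolation in both groups, and cells were plated at about a single heart per well. Every AdCre culture received the variant and the recombinase together, so that their contributions cannot be told apart, and the gene-level values do not separate the Rit1 alleles. The replicates are labelled as biological without naming litters or days, and p-values therefore measure the spread between these samples.

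Long-chain fatty acids are the main fuel of the adult heart, whereas the fetal heart relies more on glucose and lactate, and the oxidation genes are known to rise in the heart around birth. Fatty acids are released from lipoproteins outside the cell, taken up by membrane proteins, joined to coenzyme A, and handed to carnitine for entry into the mitochondrial matrix. There a repeating cycle of 4 reactions, the beta-oxidation spiral, removes acetyl-CoA from the chain and passes electrons to the respiratory chain. Many of these genes share control by nuclear receptors of the PPAR and ERR families and their PGC-1 coactivators.

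Levels are given as FPKM (fragments per kb of exon after scaling for library size), as deposited. The reads that these values imply numbered 25.28 to 26.55 M per AdGFP sample and 25.98 to 32.43 M per AdCre sample, and at 1 FPKM a gene with exons of 2 kb had 49.3 to 64.1 reads. Log2 fold changes are AdCre minus AdGFP on the log2(FPKM + 0.1) scale, which understates the change of genes with low values. They were tested with limma over the 13794 genes that averaged 0.5 FPKM or more, and a gene was called at an adjusted p under 0.05 (Benjamini-Hochberg). Same-numbered samples of the groups deviated together across genes, so a paired fit with the replicate number as a block is given beside the unpaired one, and the differences within pairs 1, 2 and 3 are given where a result turns on them. A member is said to have fallen only where the paired fit called it.

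Most of the 38 genes were modestly lower in AdCre. Of the 35 with enough signal to test, 27 had a log2 fold change below 0, against 50.4% of all genes tested, and their median was -0.29, against -0.00 over all genes. The medians within pairs 1, 2 and 3 were -0.28, -0.23 and -0.24. The 3 members below the level needed for testing were Acsl6, Cpt1b and Ucp3. In 20 of the 35 members tested the AdCre sample was the lower of its pair in all 3 pairs, a pattern shown by 24.5% of all genes. Among those tested it was the higher in all 3 pairs for 4 members, Acsl5, Cpt1a, Acot1 and Ucp2. That pattern was shown by 3292 of the 13794 genes tested.

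Most of the differences did not stand out from the spread between replicates when samples were not paired. In that fit, limma called 0 of the 35 members, while 1 gene of the whole table passed (0.00725%), and voom on the worked-back reads also called 0. At an unadjusted p under 0.05 there were 9 members, against 10.2% of all genes. With the replicate block, 6 members fell and 0 rose, namely Cd36, Lpl, Acsl1, Acadm, Acaa2 and Acot13. In that fit 6.15% of all genes were called, 3.51% as lower and 2.64% as higher. At an unadjusted p under 0.05 the paired fit had 22 members, and 3414 of the 13794 genes. The paired count of members called was 0 with eBayes without a trend (0 of 13794 genes), 1 (Cd36) without a filter on low values (17 of 28445 genes), and 12 with voom (1741 of 13788 genes), where Acsl5 and Cpt1a were called as higher. Groups did not overlap, with AdCre lower, in 7 members (Cd36, Lpl, Acadl, Acadm, Echs1, Acaa2 and Etfdh), against 8.02% of all genes. They did not overlap with AdCre higher in Cpt1a alone among the members tested, against 7.36% of all genes. The paired calls depended on pairs 2 and 3. Without pair 1 there were 7 (772 of all genes), without pair 2 there was 1, Cd36 (149 of all genes), and without pair 3 there were 0 (1 of all genes), with 20 members then at an unadjusted p under 0.05. The count over all genes thus dropped along with that of the members.

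**Figure D1:**
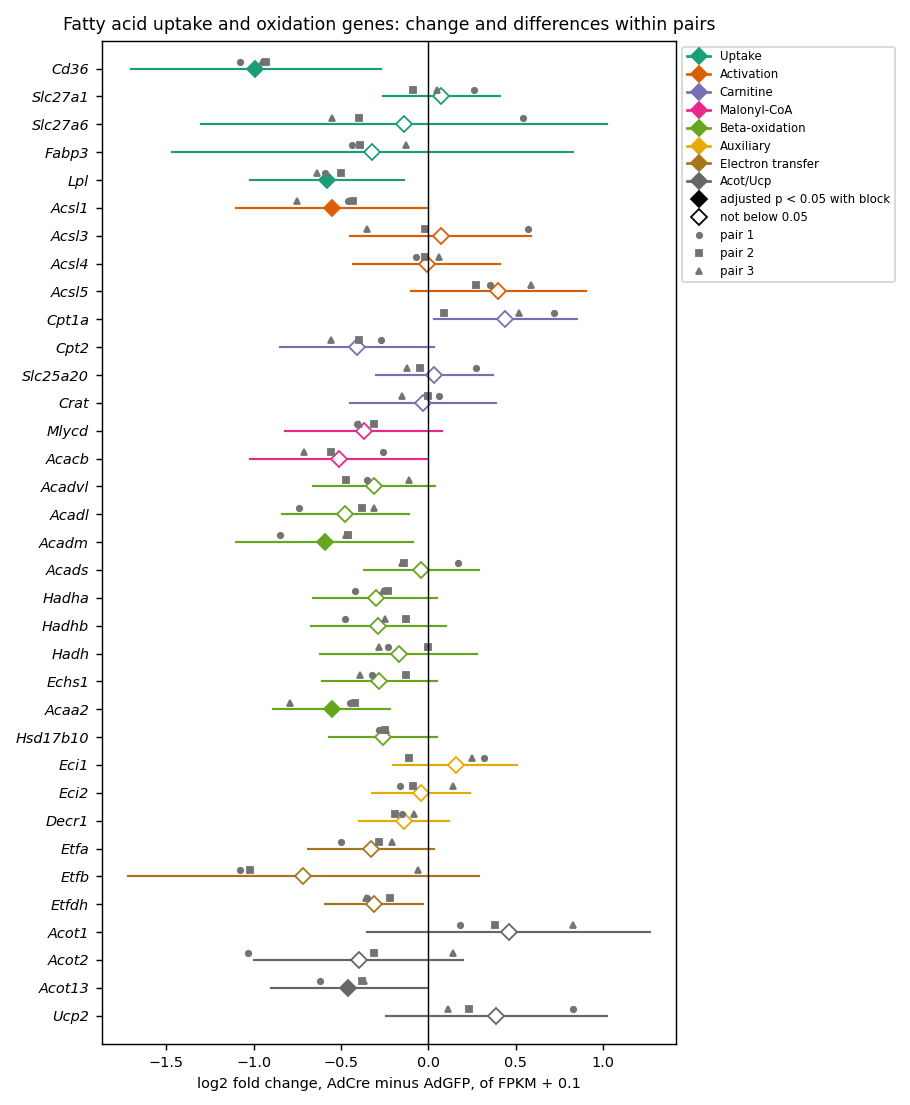
Log2 fold change (x axis, AdCre minus AdGFP, of FPKM + 0.1) of the 35 members tested (y axis, ordered and coloured by role), with diamonds for the estimate, lines for the 95% confidence interval of the unpaired limma fit, and small grey symbols for the difference within each pair. Diamonds are filled for the 6 members called with the replicate block, all of them left of 0, and Cd36 lies farthest to the left at -0.99.

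The samples also differed among themselves in the overall level of these genes. The median deviation of the 35 members from their own means was 0.16, 0.18 and -0.02 in AdGFP 1 to 3 and -0.08, -0.02 and -0.30 in AdCre 1 to 3, on the log2 scale. AdGFP 3 therefore lay level with AdCre 2, and AdCre 3 was the lowest of all. Summed over the 38 genes, the level was 1490, 1300 and 1040 FPKM in AdGFP and 1130, 1030 and 838 FPKM in AdCre.

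**Figure D2:**
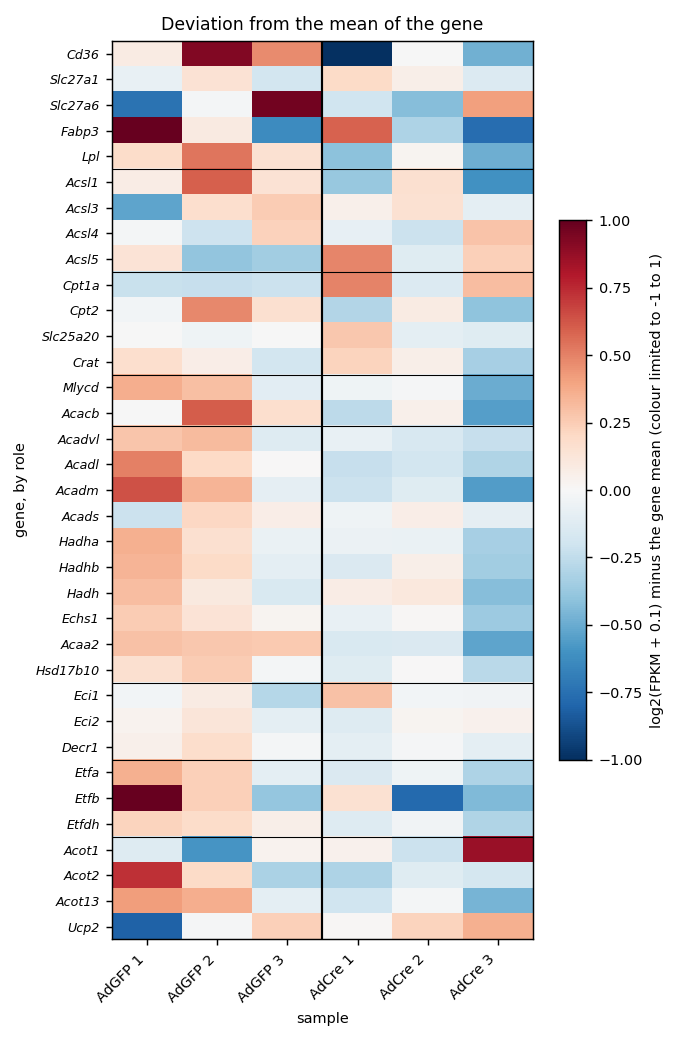
Deviation of log2(FPKM + 0.1) from the mean of each gene, with the 35 members tested in the y direction in order of role and the 6 samples along x, coloured from blue (below the mean) to red (above it) and limited to -1 and 1. Red predominates in AdGFP 1 and 2 and blue in AdCre 3, where the median deviation was -0.30. Cpt1a, Acsl5, Acot1 and Ucp2 were instead higher in the AdCre sample of each pair.

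Of the genes for uptake and binding, the surface receptor Cd36 and the lipase Lpl fell, while the transport proteins Slc27a1 and Slc27a6 did not pass. Cd36, the scavenger receptor that takes up long-chain fatty acids in heart and muscle (ENSMUSG00000002944, chromosome 5 from 17781690 to 17888801 on the minus strand, GRCm38), measured 25.5, 45.9 and 33.4 FPKM in AdGFP and 12, 24.0 and 17.2 FPKM in AdCre. Every AdCre sample was below every AdGFP sample. Its level went from 34.9 ± 10.3 to 17.8 ± 6.02 FPKM (mean ± SD, n = 3 each), a log2 fold change of -0.99 ± 0.30 (SE, limma adjusted p 0.344). Within pairs the difference was nearly constant at -1.08, -0.93 and -0.95, and the limma adjusted p with the replicate block was 0.00969. Lpl encodes lipoprotein lipase, which frees fatty acids from circulating lipoproteins at the vessel wall (ENSMUSG00000015568, chromosome 8 from 68880491 to 68907448 on the plus strand). It measured 109, 139 and 107 FPKM in AdGFP and 72.3, 98.2 and 68.4 FPKM in AdCre, again without overlap. For Lpl the log2 fold change was -0.58 ± 0.19 (SE), and its limma adjusted p was 0.367 without and 0.0198 with the replicate block.

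Fabp3, the heart fatty acid binding protein of the cytosol, had the highest level of the 38 genes per length of exon and the largest SD between replicates in FPKM. It measured 426, 222 and 135 FPKM in AdGFP and 314, 169 and 123 FPKM in AdCre, so that the groups overlapped broadly although AdCre was the lower in each pair. The log2 fold change of Fabp3 was -0.32 ± 0.49 (SE), and the limma adjusted p with the block was 0.0997. Without AdGFP replicate 1 the value turned to 0.11, and without AdCre replicate 3 it shrank to -0.02. An antisense neighbour, Zcchc17, covers 19.6% of the Fabp3 exons, and 29.2% of its 50-base words also occur in the pseudogene Fabp3-ps1. Slc27a1, a fatty acid transport protein of muscle and fat, was at 9.48 ± 1.14 FPKM in AdGFP against 9.99 ± 1.13 FPKM in AdCre. Slc27a6, a related transport protein of the heart, was scarce, at 0.358 to 1.39 FPKM in AdGFP and 0.467 to 0.915 FPKM in AdCre. The pairs of Slc27a6 went in opposite directions.

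**Figure D3:**
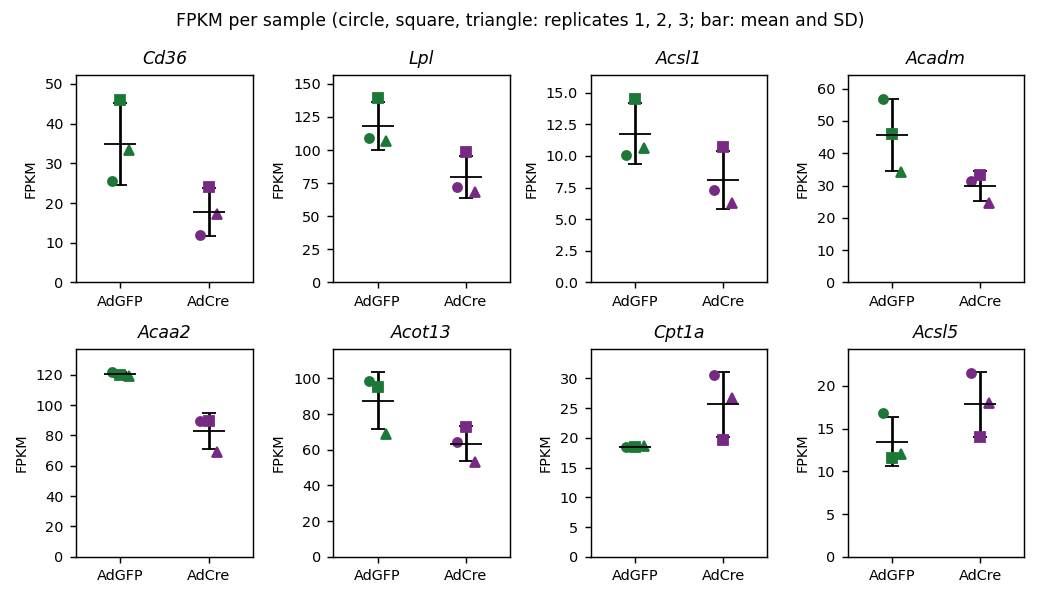
FPKM (y axis, linear from 0) of 8 members in the AdGFP and AdCre samples (x axis), with a circle, square and triangle for replicates 1, 2 and 3 and a black line with bars for the mean and SD (n = 3). Cd36, Lpl, Acadm and Acaa2 show no overlap with AdCre lower, Cpt1a shows none with AdCre higher, and Acsl1, Acot13 and Acsl5 overlap although the pairs differ in 1 direction.

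The stretch of 250 bases before the RefSeq start site of Cd36 is shown because the gene had the largest fold change among the members and is a known target of PPAR receptors. It lies at chr5:17835897-17836146 on the minus strand (GRCm38.p6) and is printed 5′ to 3′, with a nuclear receptor half-site in capitals. The half-site was searched as AGGTCA on both strands, so that TGACCT marks a match on the strand opposite to the gene.
Cd36: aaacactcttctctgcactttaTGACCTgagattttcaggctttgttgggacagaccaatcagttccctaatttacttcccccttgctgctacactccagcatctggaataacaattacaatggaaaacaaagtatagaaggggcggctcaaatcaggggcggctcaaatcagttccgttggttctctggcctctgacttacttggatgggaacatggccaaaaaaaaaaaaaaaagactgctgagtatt
The match begins 228 bases before the RefSeq start. In GENCODE M21 Cd36 begins farther upstream, at 17888801, so the whole stretch lies inside the annotated gene. RefSeq promoter windows, which also hold the first bases of the transcript, were given for 31 of the 38 members, and 8 of them (25.8%) held at least 1 half-site, against 18.1% of 27025 genes with such a window. The 8 were Cd36, Acsl6, Cpt1a, Acacb, Acadvl, Acadm, Echs1 and Ucp3. The longer ERR half-site TNAAGGTCA, which contains the shorter motif, occurred in Acsl6 alone (3.2%), against 1.4% of all genes. A match describes the letters of this window and does not show that a receptor binds there.

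Activation is carried out by the long-chain acyl-CoA synthetases, and Acsl1, the main synthetase of adult heart, fell. Acsl1 (ENSMUSG00000018796, chromosome 8 from 46471037 to 46536051 on the plus strand) measured 10.1, 14.5 and 10.6 FPKM in AdGFP and 7.34, 10.7 and 6.27 FPKM in AdCre. The groups overlapped because AdCre 2 lay just above AdGFP 1 and 3, while each pair differed in the same direction, by -0.46, -0.43 and -0.75. For Acsl1 the log2 fold change was -0.55 ± 0.23 (SE), and the limma adjusted p was 0.497 without and 0.0387 with the replicate block. Acsl1 was no longer called by the paired fit after rescaling to TPM. Acsl5, a synthetase of the mitochondrial outer membrane and endoplasmic reticulum, was at 16.8, 11.6 and 12 FPKM in AdGFP against 21.5, 14.0 and 18 FPKM in AdCre. It was the higher in AdCre in each pair, with a log2 fold change of 0.40 and a limma adjusted p of 0.0634 with the block, short of the threshold.

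Acsl3 and Acsl4, synthetases linked to lipid droplets and to arachidonate, showed no direction. Acsl3 was at 5.59 ± 1.53 and 5.73 ± 0.498 FPKM, and Acsl4 at 14.0 ± 2.13 and 14.0 ± 2.65 FPKM, in AdGFP and AdCre. Acsl6, which is typical of brain, had 2, 0 and 0 reads in AdGFP and 6, 4 and 14 reads in AdCre, below the level used for testing. The log2 ratio of Acsl1 to Acsl3, 2 synthetases whose balance shifts as the heart matures, was 1.37, 1.19 and 0.66 in AdGFP and 0.34, 0.78 and 0.26 in AdCre. The ranges overlapped, and the difference of -0.62 had p = 0.2 in an exact two-sided permutation test (0.2 after adjustment over 2 ratios), which cannot give less than 0.1 for 3 samples against 3.

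The carnitine shuttle showed no common direction, with 2 of its 4 testable members lower, 2 higher and 0 called. Cpt1a, the carnitine palmitoyltransferase isoform of liver and fetal heart that commits acyl groups to import (ENSMUSG00000024900, chromosome 19 from 3322334 to 3385733 on the plus strand), measured 18.5, 18.4 and 18.6 FPKM in AdGFP and 30.5, 19.6 and 26.7 FPKM in AdCre. The control samples were nearly identical, and all 3 AdCre samples lay above them, AdCre 2 by little. The log2 fold change of Cpt1a was 0.44 ± 0.17 (SE, 95% confidence interval 0.03 to 0.85), the limma adjusted p was 0.455, and with the block it was 0.108. Cpt2, the inner membrane transferase that releases acyl-CoA in the matrix, was at 36.5 ± 6.65 FPKM in AdGFP against 27.5 ± 5.00 FPKM in AdCre. It was the lower in each pair, with a log2 fold change of -0.41 and a limma adjusted p of 0.0514 with the block. Slc25a20, the carnitine-acylcarnitine carrier, and Crat, the carnitine acetyltransferase, stayed within 0.03 of 0 in log2 fold change, at 6.66 ± 0.109 and 6.88 ± 1.1 FPKM and at 20.6 ± 2.53 and 20.4 ± 3.90 FPKM in AdGFP and AdCre.

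The Cpt1a stretch of 250 bases before its RefSeq start is shown because Cpt1a was the member tested without overlap in the upward direction. It lies at chr19:3323051-3323300 on the plus strand (GRCm38.p6, RefSeq), with its half-site, 94 bases before that start, in capitals. In GENCODE M21 Cpt1a begins farther upstream, at 3322334, so the whole stretch lies inside the annotated gene.
Cpt1a: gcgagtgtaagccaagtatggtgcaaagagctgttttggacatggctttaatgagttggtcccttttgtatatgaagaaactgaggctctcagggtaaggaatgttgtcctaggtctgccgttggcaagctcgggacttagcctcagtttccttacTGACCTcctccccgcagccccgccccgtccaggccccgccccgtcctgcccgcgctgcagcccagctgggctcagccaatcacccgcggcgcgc

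Cpt1b, the muscle isoform that predominates in the mature heart, could hardly be read from this table. It had 23, 16 and 10 reads in AdGFP and 16, 9 and 8 reads in AdCre, or 0.276, 0.187 and 0.12 FPKM and 0.148, 0.103 and 0.0856 FPKM. Most of its exon sequence belongs to another annotated gene as well. Exons of Gm44502, a gene on the same strand that reaches from within Chkb to the end of Cpt1b, cover 81.4% of the Cpt1b exon bases, and 78.6% of the 50-base words of Cpt1b also occur in its transcripts. Gm44502 was listed at 0 in all 6 samples, and Chkb had 5 to 11 reads. How reads in shared exons were assigned is not given in the sources used here, so the level of Cpt1b is uncertain and no fold change is given. The log2 ratio of Cpt1b to Cpt1a as listed was -5.63, -6.01 and -6.40 in AdGFP and -6.95, -6.60 and -7.17 in AdCre. The groups did not overlap, and the difference of -0.89 had p = 0.1 in the exact two-sided permutation test, the smallest value it allows (0.2 after adjustment over 2 ratios). Its size was set largely by the pseudocount, which is close to the level of Cpt1b, and was -0.53 with a pseudocount of 1 and -1.14 with 0.01.

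**Figure D4:**
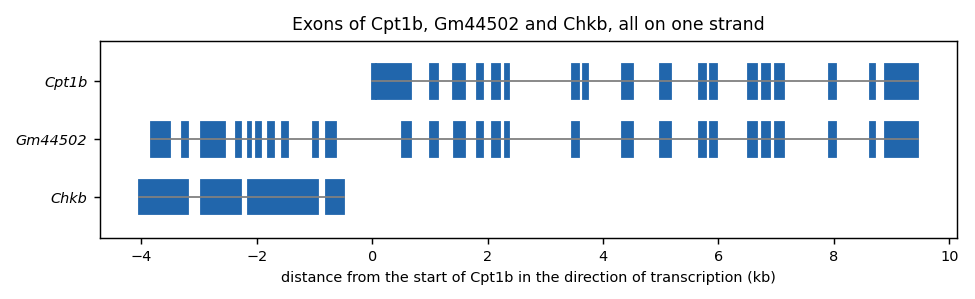
Exons (boxes) of Cpt1b, Gm44502 and Chkb in GENCODE M21, drawn to scale along the distance from the start of Cpt1b in the direction of transcription (x axis, kb). Gm44502 overlaps both neighbours, and its exons cover 81.4% of the exon bases of Cpt1b.

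The pair of enzymes that set malonyl-CoA, the inhibitor of carnitine palmitoyltransferase, were both lower without passing the test. Acacb, the mitochondrial acetyl-CoA carboxylase that makes malonyl-CoA, was at 7.93, 12.2 and 8.95 FPKM in AdGFP against 6.62, 8.25 and 5.42 FPKM in AdCre. Mlycd, the decarboxylase that removes it, was at 11.2, 10.7 and 8.09 FPKM in AdGFP against 8.41, 8.62 and 6.12 FPKM in AdCre. Both were the lower of the pair in all 3 pairs, with log2 fold changes of -0.51 for Acacb and -0.37 for Mlycd and a limma adjusted p of 0.0579 for each with the block. Acacb was at -0.33 without AdGFP replicate 2, and Mlycd at -0.21 without AdCre replicate 3. The enzyme that makes the inhibitor and the enzyme that removes it thus differed in the same direction.

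All 10 members of the beta-oxidation spiral were lower in AdCre, with a median log2 fold change of -0.30, and 8 were lower in each of the 3 pairs. Acads, at -0.04, turned to 0.05 after rescaling to TPM and to 0.02 without the scaling factors or with voom, while the rest of the spiral stayed below 0 under these settings. Acadm, the medium-chain acyl-CoA dehydrogenase (ENSMUSG00000062908, chromosome 3 from 153922357 to 153944632 on the minus strand), and Acaa2, the mitochondrial 3-ketoacyl-CoA thiolase of the last step (ENSMUSG00000036880), fell. Acadm measured 56.7, 46.1 and 34.2 FPKM in AdGFP and 31.4, 33.4 and 24.7 FPKM in AdCre, and the highest AdCre sample lay just below the lowest AdGFP sample. Its log2 fold change was -0.59 ± 0.21 (SE), and the limma adjusted p was 0.418 without and 0.0351 with the replicate block. Acaa2 measured 122, 120 and 119 FPKM in AdGFP and 89.6, 89.8 and 69.1 FPKM in AdCre. The control samples differed by far less than the distance between the groups. The log2 fold change of Acaa2 was -0.55 ± 0.14 (SE), and the limma adjusted p was 0.299 without and 0.0364 with the replicate block. After rescaling to TPM the paired fit no longer called Acaa2.

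The other acyl-CoA dehydrogenases are separated by the chain length they accept. Acadl, for long chains, measured 141, 114 and 99.7 FPKM in AdGFP and 84.5, 87.6 and 80.5 FPKM in AdCre, without overlap, and its log2 fold change of -0.48 had a limma adjusted p of 0.0577 with the block. Acadvl, for very long chains, was at 23.8 ± 3.81 and 19.0 ± 1.03 FPKM in AdGFP and AdCre, a log2 fold change of -0.31. Dvl2 on the opposite strand covers 42.9% of the Acadvl exons, and the use of strand in counting is not given in the sources used here. Acads, for short chains, differed by -0.04 on the log2 scale, at 21.0 ± 3.05 and 20.2 ± 1.14 FPKM. The long- and medium-chain enzymes were thus lower by more than the short-chain enzyme, a difference between genes that was not tested.

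The remaining enzymes of the spiral had log2 fold changes between -0.30 and -0.17. Hadha and Hadhb, the subunits of the trifunctional protein that handles long chains, were at 38 ± 5.60 and 28.2 ± 4.20 FPKM in AdGFP and at 30.7 ± 3.17 and 23.1 ± 3.22 FPKM in AdCre. Their log2 fold changes of -0.30 and -0.29 were nearly the same. Echs1, the short-chain enoyl-CoA hydratase, measured 10.2, 9.38 and 8.71 FPKM in AdGFP and 8.11, 8.58 and 6.60 FPKM in AdCre, just without overlap, with a log2 fold change of -0.28. Hadh, the short-chain hydroxyacyl-CoA dehydrogenase, differed by -0.17 and Hsd17b10, which acts on branched chains, by -0.26 on the log2 scale. The value for Hadh was -0.06 without AdGFP replicate 1 and 0.00 without AdCre replicate 3. That for Echs1 was -0.17 without AdCre replicate 3. Hsd17b10 was the most even over pairs, at -0.28, -0.25 and -0.24, and its limma adjusted p with the block was 0.0861.

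Hadha and Hadhb are transcribed away from each other, with 272 bases between their RefSeq start sites. The stretch covered by the promoter windows of both is shown as the region these subunits share, at chr5:30155003-30155230 (228 bases, plus strand, GRCm38.p6, RefSeq). In GENCODE M21 Hadha begins farther upstream, at 30155162, and Hadhb at 30155248, so most of the shared stretch lies inside the annotated Hadha gene. It held 0 half-sites. The stretch before the start of Acadm, at chr3:153944644-153944893 on the minus strand, is shown with it as the dehydrogenase gene that fell, with its half-site, 249 bases before the start, in capitals.
Hadha-Hadhb: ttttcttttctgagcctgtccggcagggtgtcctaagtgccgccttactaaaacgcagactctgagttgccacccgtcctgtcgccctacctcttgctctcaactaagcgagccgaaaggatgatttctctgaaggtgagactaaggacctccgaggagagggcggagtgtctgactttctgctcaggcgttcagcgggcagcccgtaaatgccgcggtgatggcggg
Acadm: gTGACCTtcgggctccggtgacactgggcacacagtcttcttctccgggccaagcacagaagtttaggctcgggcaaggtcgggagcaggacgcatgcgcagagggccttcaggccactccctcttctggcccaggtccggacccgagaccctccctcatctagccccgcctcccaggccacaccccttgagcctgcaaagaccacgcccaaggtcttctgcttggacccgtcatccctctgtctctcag

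The auxiliary enzymes, which reshape unsaturated chains so that they can enter the spiral, showed little difference. The isomerase Eci1 was at 23.7 ± 3.04 and 26.4 ± 3.53 FPKM, the isomerase Eci2 at 7.45 ± 0.568 and 7.24 ± 0.466 FPKM, and the dienoyl-CoA reductase Decr1 at 15.9 ± 1.11 and 14.4 ± 0.532 FPKM in AdGFP and AdCre. The log2 fold changes ran from -0.14 for Decr1 to 0.16 for Eci1. The value for Eci1 was 0.05 without AdGFP replicate 3, and also 0.05 without AdCre replicate 1.

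Electrons leave the acyl-CoA dehydrogenases through the electron transfer flavoprotein, and the 3 genes of this route were lower in all 3 pairs. Etfdh, the oxidoreductase that passes them to ubiquinone, measured 16.0, 15.6 and 14.3 FPKM in AdGFP and 12.5, 13.4 and 11.1 FPKM in AdCre, without overlap, a log2 fold change of -0.31 (limma adjusted p 0.448 without and 0.0809 with the block). The alpha subunit gene Etfa was at 52.7 ± 8.18 and 41.7 ± 3.76 FPKM, a log2 fold change of -0.33. The beta subunit gene Etfb measured 16.1, 8.06 and 5.19 FPKM in AdGFP and 7.59, 3.93 and 4.99 FPKM in AdCre. Pair 3 of Etfb hardly differed, at -0.06, whereas pairs 1 and 2 differed by -1.08 and -1.02. Etfa and Etfb encode partners in 1 protein, and the listed level of Etfb was far below that of Etfa. Exons of Gm45233 on the same strand cover 58.2% of the Etfb exons, and Gm45233 was listed at 0 in all 6 samples, so the level of Etfb is uncertain in the way described for Cpt1b.

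Among the thioesterases, which release free fatty acid from acyl-CoA, Acot13 fell. Acot13, found on mitochondria in tissues with high oxidation (ENSMUSG00000006717, chromosome 13 from 24817948 to 24831540 on the minus strand), measured 98.3, 95 and 69.0 FPKM in AdGFP and 64.1, 72.9 and 53.3 FPKM in AdCre. Only AdCre 2 and AdGFP 3 overlapped. The log2 fold change of Acot13 was -0.46 ± 0.19 (SE), and the limma adjusted p was 0.483 without and 0.0388 with the replicate block. The cytosolic Acot1 and the mitochondrial Acot2, closely related neighbours that share 19.2% and 27.7% of their 50-base words with each other, had log2 fold changes of 0.46 and -0.40. Acot1 measured 0.981, 0.684 and 1.11 FPKM in AdGFP and 1.12, 0.919 and 2.05 FPKM in AdCre. Acot2 measured 11.6, 7.94 and 5.58 FPKM in AdGFP and 5.60, 6.40 and 6.15 FPKM in AdCre, and AdGFP 1 stood above the rest. Without AdCre replicate 3 the value for Acot1 was 0.15, and without AdGFP replicate 1 that for Acot2 was -0.14. The assignment of reads between this pair of genes is uncertain.

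The uncoupling protein Ucp2, which is also abundant in immune cells, measured 5.67, 9.91 and 11.8 FPKM in AdGFP and 10.1, 11.7 and 12.8 FPKM in AdCre. Ucp2 had a log2 fold change of 0.39, with the widest pair difference, 0.83, in pair 1, and it was 0.08 without AdGFP replicate 1. The summed level of 7 macrophage markers was also lowest in AdGFP 1 and highest in AdCre 3, at 45, 193 and 248 FPKM in AdGFP and 80.7, 260 and 307 FPKM in AdCre, and its part in the Ucp2 values was not tested. The muscle gene Ucp3, a known responder to fatty acids, had 10, 33 and 26 reads in AdGFP and 8, 23 and 4 reads in AdCre, below the level used for testing.

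Other genes of lipid handling showed no common direction. Of 53 genes of peroxisomal oxidation, other acyl-CoA and carnitine reactions, lipid droplets, lipoprotein handling and ketone bodies, 48 could be tested, 29 were lower, and their median log2 fold change was -0.14. Without pairing 0 of them were called by limma (9 at an unadjusted p under 0.05), and with the block 3 fell and 3 rose. Those that fell were Acss1, a mitochondrial acetyl-CoA synthetase (-1.18, limma adjusted p with the block 0.0201), the lipid droplet protein Plin4 (-0.93, 0.0145) and G0s2, an inhibitor of adipose triglyceride lipase (-0.99, 0.0312). Those that rose were Angptl4, an inhibitor of lipoprotein lipase (0.94, 0.0271), the acyl-CoA thioesterase Acot7 (0.44, 0.0378) and the ketone body enzyme Bdh1 (0.65, 0.0454). Angptl4 measured 13.5, 8.88 and 6.22 FPKM in AdGFP and 21.8, 15.6 and 15.9 FPKM in AdCre, without overlap. Lpl and its inhibitor Angptl4 thus differed in opposite directions in each of the 3 pairs. Of 14 peroxisomal genes tested 0 were called, and the smallest p belonged to Amacr, at 4.77 ± 0.673 and 3.32 ± 0.799 FPKM.

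Among 11 tested regulators of the PPAR, ERR and PGC-1 group, 2 fell with the block and 0 rose. Ppargc1a, which encodes the coactivator PGC-1 alpha, measured 5.54, 5.55 and 4.62 FPKM in AdGFP and 3.77, 3.84 and 2.35 FPKM in AdCre, without overlap (log2 fold change -0.67, limma adjusted p 0.365 without and 0.0415 with the block). Perm1, a muscle regulator in the same route, was at 5.44 ± 1.12 and 3.39 ± 1.58 FPKM (-0.74, limma adjusted p with the block 0.0492). The median of the 11 was -0.19.

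Neighbouring routes of energy metabolism were lower by like or smaller amounts. Of 76 subunits of oxidative phosphorylation, 73 were lower, the median log2 fold change was -0.19, and 8 fell with the block, those with the smallest p being Cox7a1 (-0.67), Ndufb3 (-0.61), Uqcrb (-0.51) and Cox6a2 (-0.48). Of 29 genes of glucose uptake, glycolysis and pyruvate entry, 26 were lower with a median of -0.28, and the muscle isoforms Pgam2 (-0.70) and Eno3 (-0.56) and the insulin-responsive transporter Slc2a4 (-0.54) fell with the block. Of 12 citrate cycle genes, 9 were lower with a median of -0.17 and 0 were called, the smallest p being that of Ogdh (-0.27). The median of the fatty acid genes, -0.29, was close to that of the glucose genes, and no test of a difference between the lists was made.

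The markers of cardiomyocytes differed by more than the fatty acid genes. All 15 were lower in AdCre, with a median log2 fold change of -0.78, and 8 fell with the block. Their summed level was 9730, 6930 and 5650 FPKM in AdGFP and 4060, 5040 and 3190 FPKM in AdCre, without overlap, and their median deviations were 0.70, 0.52 and 0.09 in AdGFP and -0.19, -0.04 and -0.83 in AdCre. The order of samples resembled that of the fatty acid genes, with AdCre 3 lowest and AdGFP 3 the lowest of the controls. In bulk RNA, fewer cardiomyocytes and less of these transcripts per cardiomyocyte cannot be told apart. The median deviation of the 35 members minus that of the markers was -0.55, -0.34 and -0.12 in AdGFP and 0.11, 0.03 and 0.53 in AdCre. Relative to these markers the fatty acid genes were thus higher in every AdCre sample than in any AdGFP sample. The median deviations of all genes tested were 0.01, 0.0 and 0.0 in AdGFP and 0.01, -0.0 and -0.0 in AdCre. Relative to the markers, all genes tested were therefore also higher in every AdCre sample, so this order is not particular to the fatty acid genes. The part of the cardiomyocyte share in the fall of Cd36, Lpl, Acsl1, Acadm, Acaa2 and Acot13 was not tested.

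Markers of other cells were present as well. All 10 fibroblast markers were detected, with summed levels of 2410 to 4750 FPKM over the 6 samples, a median log2 fold change of -0.31 and 7 lower, and with the block 3 fell and 1 rose. Of 10 endothelial markers, 9 were higher in AdCre with a median of 0.38, 4 of them rose with the block, and their summed level was 95 to 147 FPKM in AdGFP and 139 to 206 FPKM in AdCre. The 6 macrophage markers tested were all higher, with a median of 0.46 and 1 rising with the block, the 6 mural markers had a median of 0.09 with 0 called, and the 6 epicardial markers one of -0.42, with 1 falling and 2 rising. Endothelial cells, macrophages and fibroblasts also express some of the 38 genes, and the part of these cells in the members' values was not tested. Adipocyte markers, which would matter for Cd36, Lpl and Plin4, summed to at most 0.390 FPKM, with Lep at 0 in all samples. Red blood cell markers summed to at most 2.18 FPKM, with Hba-a2 and Hbb-bt at 0.

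**Figure D5:**
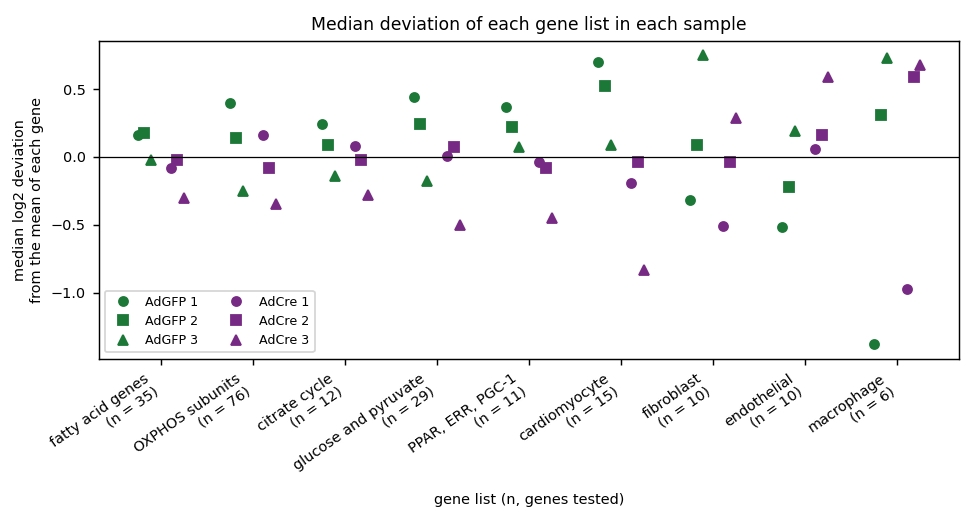
Median deviation of log2(FPKM + 0.1) from the mean of each gene (y axis) for the 35 fatty acid genes and 8 other lists (x axis, n as genes tested), with green symbols for AdGFP, purple for AdCre, and shapes for replicates 1, 2 and 3. The fatty acid genes span 0.18 to -0.30, a narrower range than the 0.70 to -0.83 of the cardiomyocyte markers, and the endothelial markers run the other way.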

How the data were processed

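The authors deposited 1 table of FPKM values, in which each of the 6 samples has its own column. Messenger RNA was enriched on poly-T beads, per the labels, and reverse transcribed from random hexamers. The submitters' processing notes list fastp, STAR 2.5, HTSeq 0.6.1 and the mm10 build. The annotation, the counting mode and the use of strand are not given in the sources used here. Symbols, exon lengths and coordinates were taken from GENCODE M21 (GRCm38), which holds 54495 of the 54532 IDs, and promoter stretches from RefSeq (GRCm38.p6). The symbols Aldoa and Atp5o match more than 1 ID, and the ID with the longer exons was used.

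FPKM times exon length was a whole multiple of a step per sample for 96.8% of 28433 genes (tolerance 0.01 reads). The denominators differed from the sums of these reads by relative factors of 0.9491 to 0.994 in AdGFP and 1.0067 to 1.0455 in AdCre, so libraries had been rescaled before deposition. Acsl6, Cpt1b and Ucp3, with at most 33 reads in any sample, were below the filter on low values used for testing.

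Samples were grouped by the labels. Values were fitted as log2(FPKM + 0.1) in limma 3.58.1 (R 4.3.3) with lmFit and eBayes with a trend, over the 13794 genes that averaged 0.5 FPKM or more and with a term for group. The paired fit added the replicate number. Replicates carry the numbers 1 to 3 in each group, and the labels do not say what a number stands for. Deviations from group means correlated at 0.568, 0.268 and 0.506 between same-numbered samples and at -0.497 to 0.036 between others, and samples were therefore paired by number, from the values alone. Ratios were tested by exact permutation in Python 3.11.15 with scipy 1.17.1. The fits were tested on simulated data.

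The members and lists were chosen with earlier results of these data known. Every member is named. From each other list, genes called without the block and then with it are named, at most 4 by smallest p, and where none was called, the gene with the smallest p. From marker lists, counts, medians, summed levels and markers at 0 are given. Lists of adipocyte and red blood cell markers had 0 genes tested. As alternatives, the pseudocount was set to 1 or 0.01, the filter was dropped or raised to 1 FPKM, and other fits used rescaling to TPM, median centring, removal of the scaling factors, eBayes without a trend, voom on the worked-back reads, pairing by replicate block, or 1 sample or pair fewer. Coordinates are 1-based. Proteins were not used here.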

Additional observations from a re-analysis of the deposited data

How the results depend on the processing

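The number of members lower in AdCre was 23 to 29 over the alternatives, with 23 after rescaling to TPM, after removal of the scaling factors and with voom, and the median log2 fold change of the members was -0.36 to -0.19. The number of members called was 0 without pairing under every alternative run and 6 with the replicate block. The paired count was 1 without a filter on low values, where 17 of 28445 genes were called, 0 with eBayes without a trend (21 at an unadjusted p under 0.05), where 0 of 13794 genes were called, and 12 with voom, 10 of them lower, where 1741 of 13788 genes were called, and it was 0 to 7 with each pair left out. Acsl5 joined the paired calls as higher after rescaling to TPM, after removal of the scaling factors and with voom, and Cpt1a as higher with voom. Acsl1 and Acaa2 were no longer called after rescaling to TPM. Cpt2 and Acacb joined as lower with a filter at 1 FPKM, without pair 1 and with voom, and Acadl and Etfb as lower with voom. Acot13 was not called without pair 1. Over the alternatives of the paired fit the limma adjusted p was 0.000339 to 0.0721 for Cd36, 0.00251 to 0.103 for Lpl, 0.00849 to 0.147 for Acsl1, 0.00604 to 0.122 for Acadm, 0.00858 to 0.13 for Acaa2 and 0.0227 to 0.131 for Acot13. Of 35 members tested, 27 did not reverse under another setting or with 1 sample left out, and 8 did. Left-out pairs were not part of this count. After rescaling to TPM the log2 fold change was 0.08 for Acsl4, 0.06 for Crat, 0.05 for Acads and 0.05 for Eci2. After removal of the scaling factors, and likewise with voom, it was 0.05 for Acsl4, 0.03 for Crat, 0.02 for Acads and 0.02 for Eci2. With each sample left out it was -0.16 to 0.10 for Acsl4, -0.15 to 0.13 for Crat, -0.16 to 0.05 for Acads, -0.10 to 0.02 for Eci2, -0.54 to 0.31 for Slc27a6, -0.72 to 0.11 for Fabp3, -0.18 to 0.21 for Acsl3 and -0.09 to 0.10 for Slc25a20. The median log2 fold change of all genes tested was -0.00 in the unpaired fit and 0.09 after rescaling to TPM. It was 0.06 after removal of the scaling factors and with voom. The cause of the shifts of the members was not tested. The log2 ratio of Cpt1b to Cpt1a differed by -0.53 with a pseudocount of 1 and by -1.14 with 0.01, since Cpt1b had 23 reads or fewer in each sample. The ratio of Acsl1 to Acsl3 differed by -0.82 to -0.47 with each sample left out. Paired by replicate number, the exact p of either ratio could not fall below 0.25.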
